A study of Mus musculus and Homo sapiens with 10 samples.

Results

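In the embryonic stem cells of this study, 3759 of 57512 H3K64ac islands overlapped no H3K122ac island, and these 3759 regions are described here. An island is a stretch of the genome in which a peak caller found more immunoprecipitated reads than background. The regions were chosen by position: an island of the H3K64ac list was kept where no island of the H3K122ac list shared at least 1 bp with it. They were then divided by a further mark into 2166 that met an H3K27ac island and 1593 that did not. All came from 46c mouse embryonic stem cells carrying a Sox1-GFP reporter, at passages 25 to 28, undifferentiated and grown without feeders in medium with serum and Lif. Chromatin was cut with micrococcal nuclease and precipitated with an antibody to H3K64ac, H3K122ac or H3K27ac. Each mark had 2 libraries from this 1 line, which the authors merged into 1 list of islands, so no value below has a spread between replicates. No expression was measured, and no gene annotation of the mm9 build was used here. The cell label was therefore not checked against marker genes, and regions are named by position in mm9.

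The lysines of histone H3 named in H3K64ac and H3K122ac lie in the folded core of the histone, on the side of the nucleosome that touches the DNA. Acetyl groups there weaken that contact, and acetylation of both lysines is known from active promoters and enhancers. The lysine of H3K27ac lies on the flexible tail, and it is the mark most used to call active enhancers. Per the title of the series, the study asked whether acetylation of the core marks enhancers. The islands described here carry a called signal for one core mark and none for the other.

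Regions without H3K122ac were a small part of the H3K64ac list, 6.54% of its islands (95% Wilson interval 6.34 to 6.74%). They covered 9.47 of 210.0 Mb and held 888409 of 38692934 H3K64ac reads, or 2.30%. The number depended on the call limits: it was 1942 with only H3K64ac islands of q at most 1e-10 and 7223 with only H3K122ac islands of that q. Wilson intervals here cover counting error only, and neighbouring islands are not independent. The share ranged narrowly along the genome. Of the 20 chromosomes with such islands it was highest on chromosome 18 (152 of 1937 islands, 7.85%, interval 6.73 to 9.13%) and on X (7.48% of 1630). It was lowest on chromosome 17 (134 of 2376, 5.64%, interval 4.78 to 6.64%) and on chromosome 8 (170 of 2869, 5.93%). None of the 4 islands on Y or the 2 on M belonged to this class.

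H3K64ac itself was weak at most of these regions. The fold is the deposited ratio of H3K64ac to background reads, scaled by library size. Its median was 1.58 in regions with H3K27ac and 1.71 in those without, against 2.81 and 1.82 in the corresponding islands that met H3K122ac. The middle 50% of the regions ran from 1.34 to 2.03 with H3K27ac and from 1.38 to 3.09 without. The H3K64ac read density told the same order, with medians of 92.9 and 102.5 reads per kb against 163 and 128 in islands with H3K122ac. Both the fold and the density had lower medians without H3K122ac on 20 of 20 chromosomes. Regions without H3K122ac were also shorter, with median lengths of 2400 bp with H3K27ac and 1800 bp without, against 3000 and 2000 bp. The authors' q-value was above 1e-10, the weaker end of the list, at 48.9% and 47.5% of them, against 9.82% and 34.4%. In a bulk assay, fewer cells carrying a mark and less of it per cell cannot be told apart. The H3K122ac call took part in choosing these regions and the marks share a background library, so these values are a description without a test.

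The median H3K64ac fold was lower without H3K122ac in each length class, by little up to 1000 bp and by more above. Among islands of 200 to 600 bp it was 2.70 without H3K122ac (84 islands) and 2.92 with it, and at 800 to 1000 bp 2.20 and 2.27. Among those of 3200 bp or more it was 1.46 (946 islands) and 2.78. Regions of up to 1400 bp without H3K27ac went the other way. At 200 to 600 bp their median fold was 3.47, against 2.67 in islands with H3K122ac but no H3K27ac. It was 2.44 against 1.88 at 800 to 1000 bp and 1.94 against 1.83 at 1200 to 1400 bp. Their background was thinner, 44.2 against 63.3, 46.2 against 71.0 and 51.1 against 66.7 reads per kb, and its part was not tested. Deciles of fold were taken over islands with at least 10 background reads, which left out 226 islands, 51 of them regions without H3K122ac. The lowest decile contained 1076 regions without H3K122ac among 5730 islands (18.8%, interval 17.8 to 19.8%). The second decile contained 13.4%, the fifth 4.47% and the ninth 2.15%, and the highest decile again 2.71% (155 of 5729, interval 2.32 to 3.16%). With no limit on background reads, the share at a fold of 5 or more was 3.26% (247 of 7584). The share fell with background density too, from 13.2% below 20 background reads per kb to 5.0% at 60 or more. These regions were thus commonest at weak H3K64ac islands and where background was thin.

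**Figure D1:**
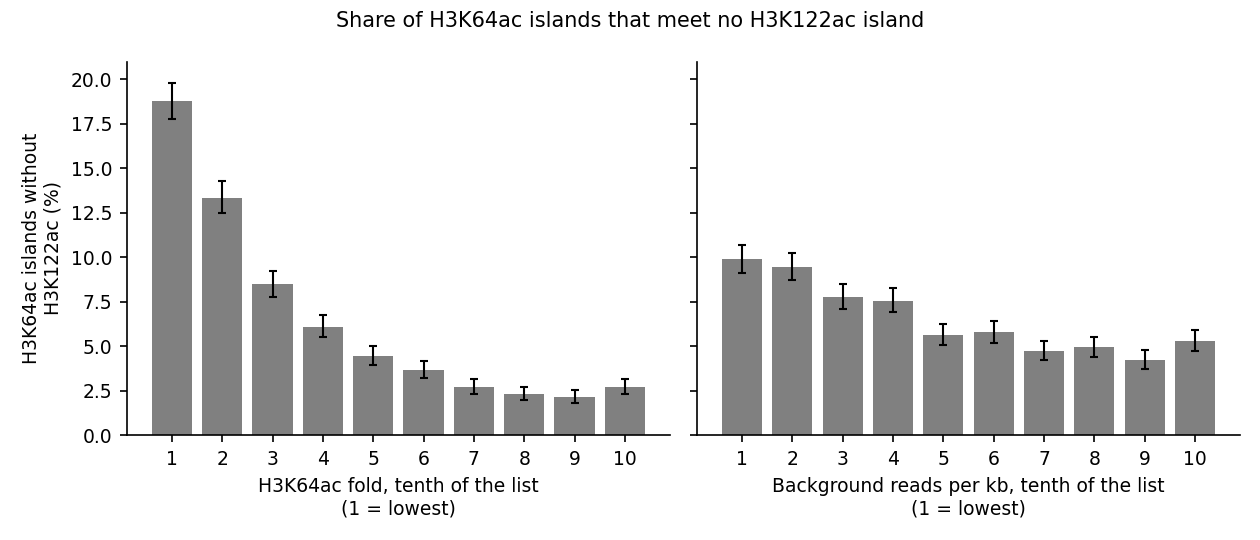
Percentage of H3K64ac islands that met no H3K122ac island, in deciles of H3K64ac fold (left) and of background reads per kb (right), with 95% Wilson intervals. The left panel leaves out islands with fewer than 10 background reads. Left, the bars fall from 18.8% in the lowest decile to 2.15% in the ninth. Right, they fall from 9.89% in the lowest decile to 4.22% in the ninth.

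Each region was set beside the islands with H3K122ac of the same length and with background reads within 20%, where at least 20 such islands existed. This was possible for 3664 regions. Their H3K64ac fold stood at the median at percentile 12.5 of the like islands, with quartiles of 5.49 and 23.3. Only 147 regions (4.01%) were above the 50th percentile. Most regions of this class thus had a low H3K64ac fold for their own length and background.

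H3K27ac, which the choice of regions did not use, was met by 2166 of the 3759, or 57.6% (interval 56.0 to 59.2%). The share was 73.6% among H3K64ac islands with H3K122ac (interval 73.2 to 73.9%) and 72.5% over all H3K64ac islands. When only H3K27ac islands with a q-value of at most 1e-10 counted, the shares were 27.8% without and 46.5% with H3K122ac. With all H3K27ac islands counted, the share was lower without H3K122ac on 19 of 20 chromosomes. The exception was chromosome 19, where 85 of 107 regions met H3K27ac (79.4%) against 76.8% of the islands with H3K122ac. Longer regions met H3K27ac more often in both groups. The share rose from 31.0% against 54.3% at 200 to 600 bp, through 47.8% against 64% at 1600 to 2000 bp, to 78.5% against 85.8% at 3200 bp or more. The lower share without H3K122ac was thus present in each length class.

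The relation between H3K64ac strength and H3K27ac differed between the groups, most at a fold of 3 or more. In islands with H3K122ac the H3K27ac share rose with H3K64ac fold, from 44.5% below a fold of 1.5 through 60.9% (1.5 to 2) and 77.1% (2 to 3) to 88.9% (3 to 5) and 87.1% (5 or more). In regions without H3K122ac it was 61.1%, 64.7% and 65.7% in the first 3 of these classes, and then 36.7% and 10.5%. At a fold of 3 or more, 136 of 547 regions met H3K27ac, which is 24.9% (interval 21.4 to 28.7%). The corresponding share with H3K122ac was 88.3% (17903 of 20285). Over all H3K64ac islands 36.2% reached a fold of 3, and 86.6% of those met H3K27ac. Below a fold of 3 the shares were 63.2% without and 64.7% with H3K122ac. The weakest regions, below a fold of 1.5, therefore met H3K27ac more often than equally weak islands with H3K122ac, and the strongest far less often.

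**Figure D2:**
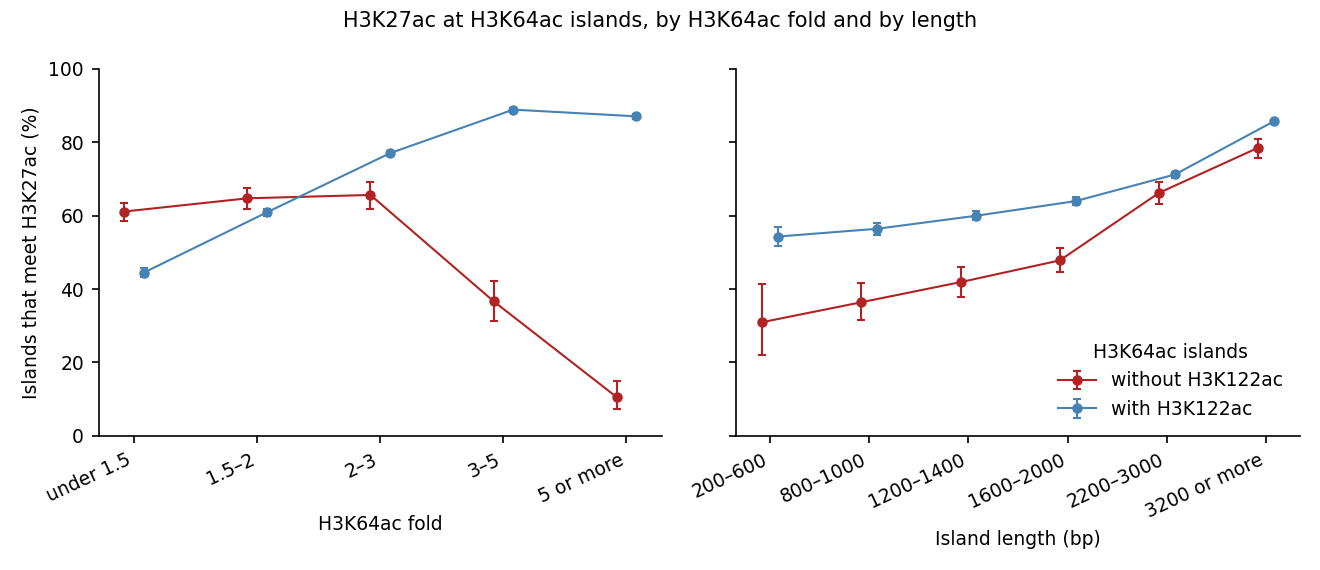
Percentage of H3K64ac islands that met an H3K27ac island, by H3K64ac fold (left) and by island length (right), for islands without (red) and with (blue) H3K122ac, with 95% Wilson intervals. The lines cross in the left panel: the red share drops to 10.5% at a fold of 5 or more while the blue share is 87.1%. In the right panel red lies below blue in each length class.

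Background density moved with this pattern. Regions without H3K122ac of fold 3 or more had a median of 20.8 background reads per kb and a length of 1400 bp, against 45.0 reads per kb and 3000 bp with H3K122ac. Below 20 background reads per kb, 18 of 254 regions met H3K27ac (7.09%), against 59.8% of the 1674 islands with H3K122ac. Without those regions the share at a fold of 3 or more was 40.1%. Where background was 20 to 40 reads per kb and the fold at least 3, the shares were 39.1% (107 of 274) and 84.1%. With length also held at 1200 to 2000 bp, they were 36.8% (57 of 155) and 75.8%. In the same background class at 2200 bp or more they were 64.8% (35 of 54) and 93.4%. The groups were not fully alike within these classes. At 1200 to 2000 bp the median fold was 3.56 without and 4.40 with H3K122ac, at 26.1 and 29.4 background reads per kb. The lower H3K27ac share was present in each of these classes, and the part of background and fold in its size was not tested.

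Where H3K27ac was present, it covered most of the region. The H3K27ac islands covered a median of 66.7% of the region (quartiles 42.2 and 89.5%), close to the 65.0% in islands with H3K122ac. At least 50% was covered in 1500 of the 2166. A single H3K27ac island was met by 1664 regions and several by 502, up to 7. In all, 2814 H3K27ac islands met these regions, and 56 of them reached an H3K122ac island as well. Their own H3K27ac fold had a median of 1.46, against 1.57 in H3K27ac islands that met only H3K64ac islands with H3K122ac and 1.44 in those that met no H3K64ac. The median was lower at regions without H3K122ac than with it on 20 of 20 chromosomes. The log2 ratio of these medians was -0.11, and it turned to 0.074 when only H3K64ac islands of fold 2 or more were kept. An H3K27ac fold of 3 or more was reached by 63 of the 2814 (2.24%, interval 1.75 to 2.85%), against 6.24% at islands with H3K122ac and 4.44% of all H3K27ac islands.

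In 83 regions the H3K64ac and the H3K27ac island had identical ends, so that both marks were counted over the same bases and the same background reads. Their median fold was 1.61 for H3K64ac and 1.45 for H3K27ac. In the other islands with identical ends, all of which met H3K122ac, the medians were 2.60 and 1.60. Folds of different lists are scaled by different library ratios, so for these islands each mark is compared only with itself.

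Within the class, regions with H3K27ac were longer and rarely had a high fold. Median background was nearly the same, 52.1 reads per kb with H3K27ac and 51.2 without, but its 5th percentile was 28.8 and 10.5. A fold of 3 or more was reached by 136 (6.28%) and 411 (25.8%), and a fold of 5 or more by 26 (1.20%) and 221 (13.9%). The log2 ratio of their median folds, with over without H3K27ac, was -0.11, with the lower value in regions with H3K27ac on 16 of 20 chromosomes. It turned to 0.083 when only H3K27ac islands with a q-value of at most 1e-10 counted and to 0.036 with the same limit on H3K122ac islands. The order also depended on length. At 800 to 1000 bp the medians were 2.06 with and 2.44 without H3K27ac, and at 1600 to 2000 bp they were 1.69 and 1.63.

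Among regions without H3K27ac, high folds and thin background occurred together. The 221 of fold 5 or more had medians of 109.5 H3K64ac and 13 background reads per kb, against 102.5 and 51.2 over all regions without H3K27ac. The fold is made from both counts, so this is a description. Of the 1593 regions without H3K27ac, 236 (14.8%) had under 20 background reads per kb, against 18 of 2166 (0.83%) with H3K27ac. Those 236 had a median of 100 H3K64ac reads per kb and a fold of 7.48. Islands with H3K122ac but no H3K27ac, at the same thin background, had 123 reads per kb and a fold of 8.58. Fewer than 10 background reads lay behind the fold of 51 regions, all without H3K27ac. One region had none, and its fold is not interpreted.

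**Figure D3:**
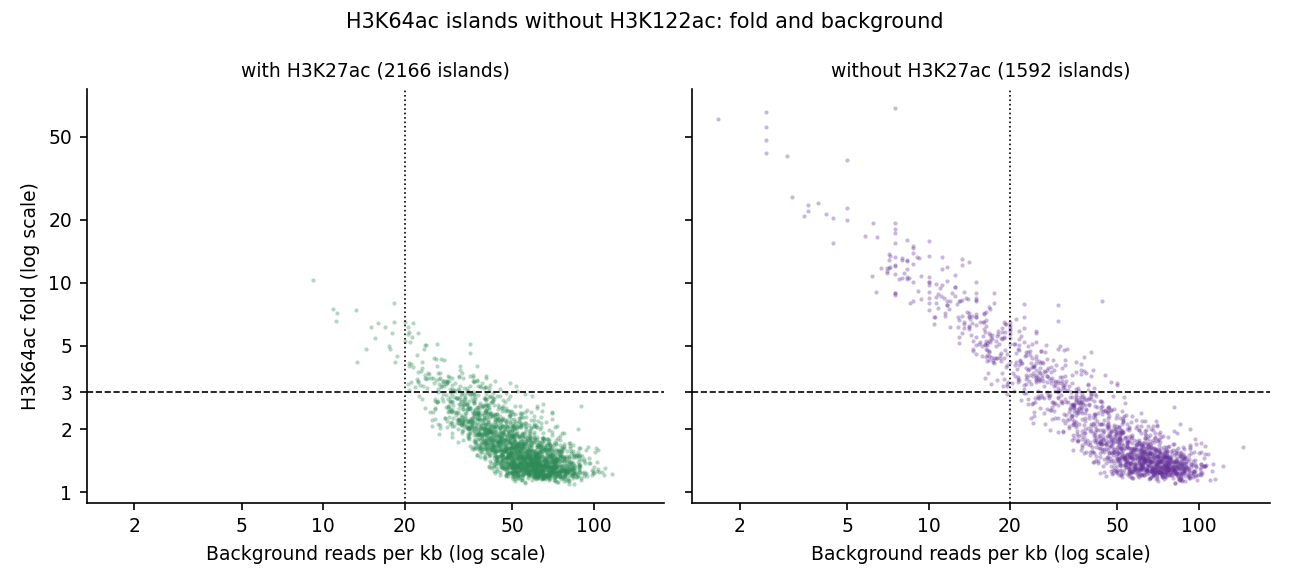
H3K64ac fold against background reads per kb (both on log scales) for regions without H3K122ac, with (left) and without (right) H3K27ac, 1 point per island. The dashed line is a fold of 3 and the dotted line 20 background reads per kb. The right panel has 236 points left of the dotted line and the left panel 18. The region with no background read is not drawn.

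The named regions show both kinds. Among regions with at least 100 H3K64ac and 10 background reads, those of highest fold without H3K27ac began with chr12:20812001-20814000. It had 252 H3K64ac reads on 15 background reads, a fold of 15.5, and its nearest H3K122ac and H3K27ac islands were 6600 and 7000 bp away. The next was chrX:18352001-18353400, with 149 reads on 10 and a fold of 13.8. It was followed by chr9:12885201-12887000, with 190 on 13 (fold 13.5), and chrX:21675401-21677600, with 287 on 20 (fold 13.3). All 4 had under 10 background reads per kb, and their nearest H3K27ac islands were 7000 to 19200 bp away.

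The highest folds among regions with H3K27ac were lower. At chr3:86197801-86200200 there were 246 H3K64ac reads on 22 background reads, a fold of 10.3. A single H3K27ac island, itself of H3K27ac fold 1.70 (290 reads on 78), covered 16.7% of it. The next were chr17:62457001-62459200, with 194 reads on 24 (fold 7.47), chr6:10492801-10495000, with 233 on 29 (fold 7.42), and chr4:66568601-66570200, with 140 on 18 (fold 7.19). H3K27ac covered 9.09% of each of the first 2 and 25.0% of the last. At these high-fold regions H3K27ac thus reached only an edge or a small part of the H3K64ac island.

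The longest regions were the opposite, broad and weak. The longest with H3K27ac was chr16:8701601-8721200, which spanned 19600 bp with 1839 H3K64ac reads on 1351 background reads, a fold of 1.26. It held 3 H3K27ac islands, which covered 66.3%. The next were chr11:57837401-57855600 (18200 bp, fold 1.30, 4 H3K27ac islands over 75.8%) and chr18:14808801-14823800 (15000 bp, fold 1.29, 6 H3K27ac islands over 82.7%). Without H3K27ac the longest was chr1:173470201-173482800, of 12600 bp, with 1725 reads on 1389 and a fold of 1.15. It lay 32400 bp from H3K122ac and 35200 bp from H3K27ac. The next were chrX:166407601-166418400 (10800 bp, fold 1.68) and chr4:145661201-145671800 (10600 bp, fold 1.56). The X region ended 800 bp short of an H3K122ac island.

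The strongest H3K27ac at these regions rested on few reads. At chr5:108529601-108535600, a 6000 bp region of H3K64ac fold 3.0 (571 reads on 176), the strongest of 4 H3K27ac islands had an H3K27ac fold of 13.3 from 58 reads on 2 background reads. The region chr4:66568601-66570200 above met an H3K27ac island of H3K27ac fold 9.33 (102 reads on 5). Next was chr9:10307401-10309600, of H3K64ac fold 2.71 (170 reads on 58), where the H3K27ac fold was 7.70 (101 reads on 6).

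The H3K64ac fold of the regions was also set beside the weakest H3K122ac calls of like length and background. For each region the H3K122ac islands of the same length and with background reads within 20% were collected, with at least 20 for 3679 of the 3759 regions. The 5th percentile of their H3K122ac fold had a median of 1.5, and their median fold a median of 3.07. The regions' own H3K64ac fold had a median of 1.61. It lay below the 5th percentile of called H3K122ac folds in 1288 regions (35.0%) and below the lowest called fold in 198. It lay above the median H3K122ac fold in 61 (1.66%). Falling below the 5th percentile was more frequent with H3K27ac (890 of 2142, 41.6%) than without (398 of 1537, 25.9%). The other 2391 (65.0%) were at or above the 5th percentile. The folds come from separate lists, each scaled by its own library ratio. This sets a level beside a level and is no measurement of H3K122ac. A shorter H3K122ac island would also have removed a region from the class, and such islands were not compared. These levels are therefore not the call limit of the H3K122ac list, whose lowest fold at any length was 1.11. An H3K122ac signal below the call limit was not detectable in these lists.

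The median distance to the nearest H3K122ac island was 6600 bp (7000 bp with H3K27ac and 6400 bp without). It was at most 1000 bp at 224 regions, over 5000 bp at 2213 (58.9%) and over 50000 bp at 138. Counted per region, the nearest H3K122ac island met another H3K64ac island in 79.3% of cases, and its median H3K122ac fold was 3.29. Over all H3K122ac islands, each counted once, the values were 60.6% and 2.83. These counts differ in unit, and whether the difference is particular to these regions was not tested. The 138 remote regions had a median H3K64ac fold of 2.87. By class it was 1.99 in the 55 with H3K27ac, at 42.6 background reads per kb, and 4.54 in the 83 without, at 21.7.

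**Figure D4:**
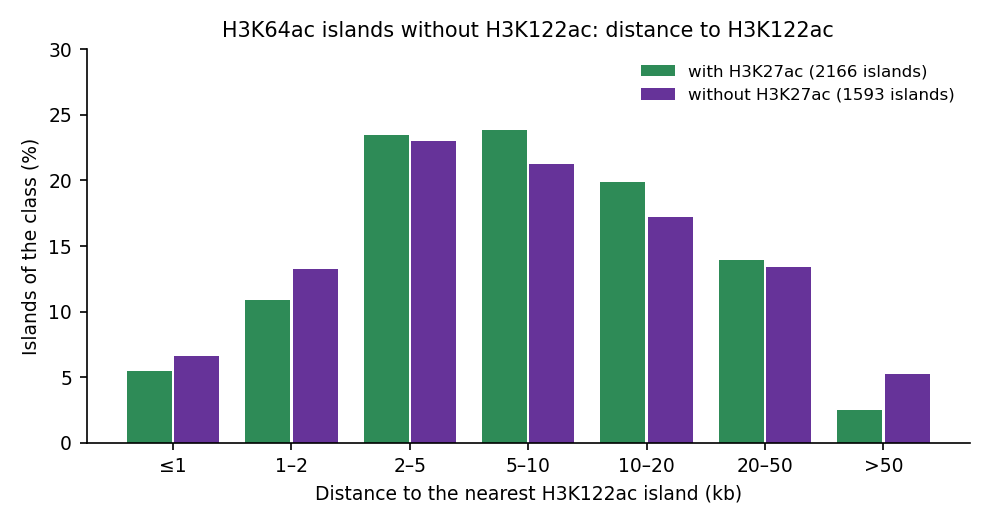
Percentage of regions without H3K122ac by distance to the nearest H3K122ac island in kb, for the 2166 regions with H3K27ac (green) and the 1593 without (purple). The bins differ in width, so the heights of the bars are not densities. In both classes the bars between 2 and 10 kb are the tallest. The bin of 1 to 2 kb, which is narrower, holds 10.9% of the green and 13.2% of the purple. Beyond 50 kb lie 2.54% of the green and 5.21% of the purple.

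The most remote region with H3K27ac was chr11:92312001-92314400, 141200 bp from H3K122ac, with 173 H3K64ac reads on 70 (fold 2.28) and H3K27ac of fold 1.76 over 50% of it. Then came chr9:3729001-3730600, 139000 bp away, with 142 reads on 48 (fold 2.73) and H3K27ac of fold 2.17 over 87.5%. At chr5:19781601-19782400, 128200 bp away, the 104 reads on 38 gave a fold of 2.53, and an H3K27ac island of fold 1.78 covered the whole region. Without H3K27ac the most remote was chr12:116837001-116845400, 439000 bp from H3K122ac, with 804 reads on 596 (fold 1.25). The others were chr2:8723801-8725400, 289400 bp away with 128 reads on 69 (fold 1.71), and chr2:111574601-111576800, 192600 bp away with 176 reads on 38 (fold 4.28). The last lay 800 bp from an H3K27ac island.

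Few regions lay within 600 bp of an H3K122ac island, but the number of regions depended on how much overlap was required. One region touched an H3K122ac island without sharing a base with it, and 25 lay within 600 bp, with a median H3K64ac fold of 1.43. Just outside the rule, 83 H3K64ac islands shared 200 bp with H3K122ac. These were themselves short, with a median length of 200 bp and a fold of 4.36. Another 676 shared 400 bp, with a median length of 400 bp and a fold of 3.07. When 50% of the H3K64ac island had to be covered, 7330 regions counted as without H3K122ac. Of the islands with H3K122ac, 29 were covered by H3K122ac to at most 10% of their length, with a median length of 5600 bp and a fold of 1.55, and 7 of these are also among the 83.

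Regions without H3K122ac had each other as neighbours more often than islands with H3K122ac had them. In the order of the list, 2818 of the 3759 (75%) had no other such region directly beside them, against 88.6% of the islands with H3K122ac and 87.7% of all H3K64ac islands. No test was made of this difference. Runs of 3 or more in a row numbered 100 and held 345 regions. The median distance to the nearest other H3K64ac island of any kind was 5000 bp for regions with H3K27ac, against 6200 bp for islands with both other marks. Without H3K27ac it was 7200 bp, against 6800 bp with H3K122ac. A bin of 1 Mb that held any such region held a median of 2. The fullest bins held 14 of 44 H3K64ac islands on chromosome 13 (44000001 to 45000000), 11 of 57 on chromosome 5 (65000001 to 66000000) and 10 of 51 on chromosome 16 (38000001 to 39000000).

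The longest run counted 12 consecutive regions in 90 kb, chr13:44849601-44939600, of which 8 met H3K27ac. Their H3K64ac folds ran from 1.26 to 2.26 and their lengths from 2000 to 7000 bp, at 33.5 to 55.0 background reads per kb. The run began beside an H3K64ac island of 39000 bp that had H3K122ac, with 9703 reads on 1777 and a fold of 5.05. It ended beside one of 1200 bp with 187 reads on 27 and a fold of 6.40. The next longest run was 6 regions at chr1:84767201-84823800, with folds of 1.63 to 3.66, of which 5 met H3K27ac. Over all regions without H3K122ac the share was 57.6%.

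**Figure D5:**
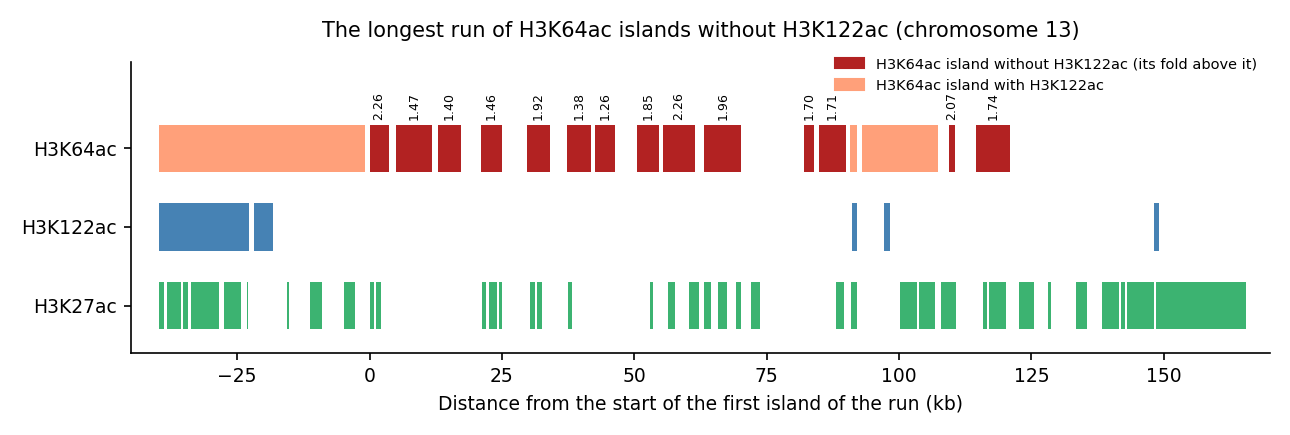
Map of H3K64ac, H3K122ac and H3K27ac islands along the longest run of regions without H3K122ac, as distance in kb from the start of its first region. Dark red bars are H3K64ac islands without H3K122ac with their fold above them, and light ones have H3K122ac. Between 0 and 90 kb there are 12 dark red bars and no H3K122ac island, while H3K27ac islands are scattered along 8 of them.

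The X chromosome had the lowest share of regions that met H3K27ac, and most of its regions had a high H3K64ac fold. Of its regions without H3K122ac, 25 met H3K27ac (20.5%, interval 14.3 to 28.5%), against 67.1% of its islands with H3K122ac. The lowest share on another chromosome was 50.9%, on chromosome 13. Background on X was thin, with a median of 21.4 reads per kb at these regions and 28.2 at islands with H3K122ac, against 49.8 or more on each other chromosome. The median H3K64ac fold on X was 5.03 without and 5.91 with H3K122ac. Read densities, 107 and 167 H3K64ac reads per kb, differed less from those elsewhere. On X, 96 regions without H3K122ac had a fold of 3 or more, and 15 of them met H3K27ac (15.6%). Below a fold of 3 it was 10 of 26 (38.5%), against 63.4% on the other chromosomes. The parts of background and fold in the X values were not tested. Leaving X out, regions without H3K122ac met H3K27ac in 58.9% of cases, and those of fold 3 or more in 26.8%, against 89.5% of the islands with H3K122ac.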

How the data were processed

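The regions, lists and comparisons were chosen with earlier results of these data known. Per the submitters' processing notes, Bowtie 0.12.8, HOMER 4.3, SICER 1.1 and the build mm9 were used; their roles are not stated in these sources. The labels of the lists give a window of 200 bp, a false discovery rate of 0.01, and gaps of 600 bp for H3K64ac and H3K122ac and 200 bp for H3K27ac. The authors merged the 2 libraries of each mark before calling.

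For each island the deposited lists give whole-number read counts of the immunoprecipitated and a background library, not normalized. They also give a p-value and a q-value, both by the authors' caller. Their fold, a ratio in the deposited lists, equals immunoprecipitated over background counts after scaling by a constant library ratio (1.08 for H3K64ac, 0.913 for H3K122ac, 2.19 for H3K27ac), with a background of 0 entered as 0.25. All 1922 H3K64ac and H3K27ac islands with the same ends had equal background counts, so a background library was shared. Its identity is not given in the labels. Reads in islands numbered 38692934 for H3K64ac, 44320255 for H3K122ac and 40473895 for H3K27ac. Whole-library depth was not used here.

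Overlaps of at least 1 bp and distances were computed with Python 3.11.15, numpy 2.4.6 and pandas 2.3.3, and tested on simulated intervals. Intervals of shares are 95% Wilson intervals (scipy 1.17.1). With 1 merged list per mark no test was made. Regions were named by rule among those with at least 100 H3K64ac and 10 background reads: in each class the 4 of highest fold, the 3 longest and the 3 farthest from H3K122ac, and the 3 with the highest H3K27ac fold. The fullest bins of 1 Mb and the chromosomes with the 2 highest and 2 lowest shares were named too. The limit of 10 background reads was not applied to the regions named under other observations. The fold limit of 3 and the split by background density were chosen after seeing the data. The human lists of the series were not analysed here.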

Additional observations from a re-analysis of the deposited data

How the results depend on the processing

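The number of regions, 3759, was 7330 when 50% of the H3K64ac island had to be covered, 2213 when H3K122ac within 5000 bp counted as overlap, 1942 with only H3K64ac islands of q at most 1e-10, 7223 with only H3K122ac islands of that q, and 1205 with only H3K64ac islands of fold 2 or more. The share that met H3K27ac, 57.6%, was 39.1% under 50% cover, 47.1% at fold 2 or more and 27.8% with only H3K27ac islands of q at most 1e-10. The log2 ratio of median H3K64ac fold without over with H3K122ac, -0.62, stayed negative: -0.47 (50% cover), -0.55 (5000 bp), -0.35 (H3K64ac q), -0.72 (H3K122ac q) and -0.20 (fold 2). That with over without H3K27ac, -0.11, was -0.23 (5000 bp), -0.55 (H3K64ac q) and -0.61 (fold 2), and turned to 0.036 (H3K122ac q) and 0.083 (H3K27ac q). The log2 ratio of median H3K27ac fold, -0.11, was -0.051 (50% cover), -0.081 (5000 bp), -0.010 (H3K64ac q) and -0.16 (H3K122ac q), and turned to 0.074 (fold 2). The median distance to H3K122ac, 6600 bp, was 800 bp (50% cover), 7400 bp (either q) and 8600 bp (fold 2). The H3K27ac share at fold 3 or more, 24.9%, was 20.4% (50% cover) and, with at least 20 background reads per kb, 40.1%; the alternatives for this share were chosen after seeing the data. The cause of these shifts was not tested. Of 58 alternative values, 29 kept to the limits used: within 1.5 times for the number of regions, and within the 95% interval of the reported value for shares, ratios and the distance. No paired analysis was possible because each mark has 1 merged list. Counts of islands rest on the authors' call limits, and an H3K122ac signal below its limit could not be seen.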

Other observations

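A handful of regions had an H3K64ac fold well above the weakest H3K122ac calls of like length and background. At 11 regions the fold was at least 2 times the 5th percentile of the H3K122ac folds called at the same length and like background. They were picked after their values were seen, and their folds come from a list other than the H3K122ac folds set beside them. The first was chr5:28673201-28674000, an 800 bp region with 446 H3K64ac reads on 6 background reads (fold 68.7), where the like H3K122ac islands had a 5th percentile of 13.7. Also on chromosome 5, the 1000 bp region chr5:28677001-28678000 had 392 reads on 44 (fold 8.23, against 1.93). Their read densities of 557.5 and 392.0 reads per kb were far above the median of 96.4 over all regions without H3K122ac. They lay 17000 and 20800 bp from the nearest H3K122ac island and 10000 and 6000 bp from H3K27ac.

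Of the remaining regions in this set, chrX:17743601-17744800 had 231 reads on 17 (fold 12.6, against 5.42) and lay 1800 bp from H3K122ac. The region chrX:74812601-74814200 had 265 reads on 49 (fold 5.0, against 2.26) and lay 54200 bp from H3K122ac and 54800 bp from H3K27ac. Over all regions without H3K122ac, H3K27ac was met by 57.6%, and by 24.9% of those of fold 3 or more. Among the 11 regions here, 3 met it. The most covered were chr17:26315001-26316200, with 216 reads on 62 (fold 3.22), and chr15:82640001-82641200, with 221 on 71 (fold 2.88), both covered by H3K27ac to 83.3%. The chromosome 15 region lay 57200 bp from H3K122ac.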
